A study of Mus musculus with 28 samples.

Results

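The data described here are the 4 two-colour arrays that set the cerebellum of a Ts1Cje mouse at postnatal day 10 (P10) against the cerebellum of a euploid mouse at P10. They were chosen by their source names, which give Ts1Cje at P10 on 1 channel and euploid at P10 on the other, and they make up 4 of the 28 arrays and 8 of the 56 mice of the study. In Ts1Cje mice a distal segment of chromosome 16 (Mmu16) is present in 3 copies through its translocation onto chromosome 12 (Mmu12), which left a short Mmu12 segment in 1 copy. The euploid mice carry both regions in 2 copies, and the labels give the strain of all 8 mice as B6EiC3SnF1/J A/a. Each mouse gave its own RNA sample and no cerebella were pooled. Ts1Cje was labelled with Cy3 on replicates 1 and 2 and with Cy5 on replicates 3 and 4, so dye orientation cannot be told apart from the letter prefix of the array titles, which splits the 4 arrays the same way. The series record states that each array set a male against a female, but the labels do not give the sex of a mouse, and none was assigned. All values below are log2 ratios signed as Ts1Cje minus euploid, so that a positive value means a higher level in the Ts1Cje mouse of that array.

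In the mouse cerebellum, granule cell precursors divide in the external granular layer after birth under the control of Sonic hedgehog released by Purkinje cells, and their daughters migrate inwards to become granule neurons. Around P10 both cell types are abundant, synapses with Purkinje cells are forming and oligodendrocytes are beginning to lay down myelin. A gene present in an extra copy is often transcribed in proportion to its dosage, which for 3 copies against 2 copies would give a log2 ratio of 0.58. The labelled tissue could be checked only by which spots rose above background, because the deposited values are ratios and not levels. Of the markers with a probe, 10 of 13 for granule cell precursors (76.9%), 11 of 14 for granule neurons (78.6%) and 11 of 16 for Purkinje cells (68.8%) had a value on all of replicates 1 to 3, beside 66.9% of all genes and unnamed probes. The share was 75.0% for choroid plexus markers (6 of 8), so having a value hardly separated cerebellar markers from other genes and the tissue could not be checked in this way.

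Replicate 4 stood apart from the other arrays before any genotype was considered. Each array's Cy5/Cy3 ratios were compared, row by row, with the mean of the other arrays. They were slid by 0 to 264 rows either way inside printed blocks of 528 rows. Arrays that matched best at another offset in a first scan were left out of this mean. On 26 of 28 arrays the match was best with the rows as deposited, with Pearson correlations across rows of 0.15 to 0.395, and replicates 1 to 3 at P10 gave 0.221 to 0.323. On replicate 4 the correlation was -0.007 as deposited and 0.173 after moving the values back by 72 rows, which is 3 rows of 24 spots. The next highest of its 529 offsets gave 0.048. The correlation was above 0 in 47 of 48 blocks after the move and in 19 of 48 as deposited. In the deposited table, the values of replicate 4 therefore matched the other arrays best when read against the probe names 72 rows away, and why this was so was not tested. Of the 4 arrays that set P7 against P10, 1 array (Ts1Cje P10 over euploid P7, replicate 2) showed the same at 24 rows, with a correlation of 0.122 against 0.003 as deposited. Main results below are therefore given on all 4 arrays as deposited, on replicates 1 to 3, and with replicate 4 moved back, which left 3456 probes at the block ends without a value. Single genes are given on replicates 1 to 3, with replicate 4 where it is stated. Ts1Cje was on Cy3 on replicates 1 and 2 and on Cy5 on replicate 3, so a dye effect does not cancel in a mean over these arrays.

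**Figure D1:**
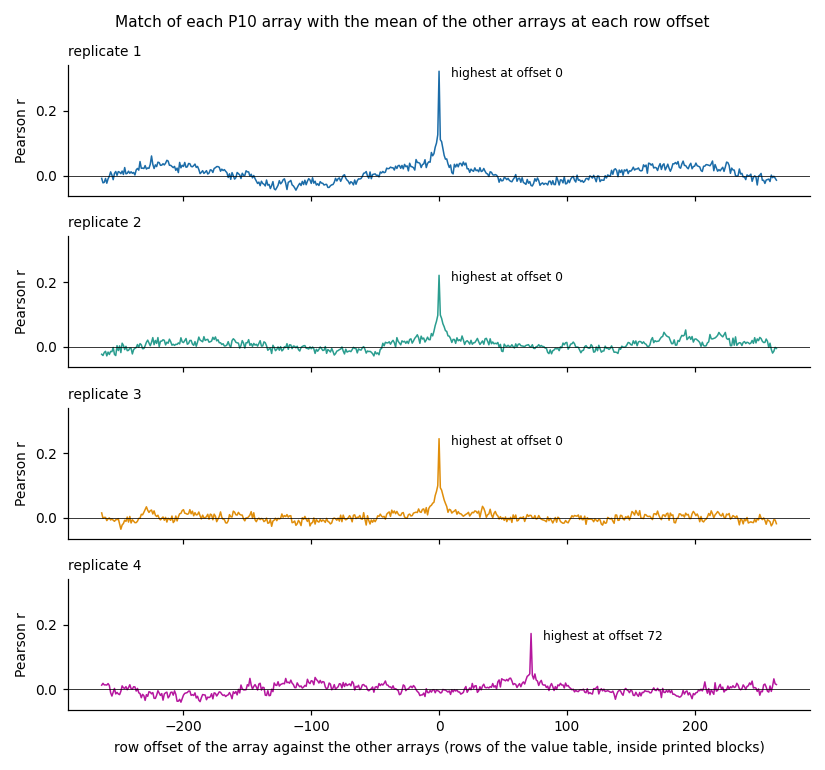
Pearson correlation across rows (vertical axis) between the Cy5/Cy3 ratios of each P10 array and the mean of the other arrays that matched as deposited, against the row offset applied (horizontal axis, rows of the value table). Replicates 1 to 3 have a single peak of 0.221 to 0.323 at offset 0, and replicate 4 has its peak of 0.173 at 72 rows.

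The arrays also differed in depth and spread. They gave 20577, 22072, 21295 and 16898 probe values on replicates 1 to 4, and the standard deviations of the log2 ratios were 0.631, 0.673, 0.978 and 1.421. Across genes, the signed ratios of replicates 1 and 2 correlated at 0.12 and those of replicate 3 with either at -0.11 and -0.08, while replicate 4 as deposited gave -0.01 to 0.01. After the move, replicate 4 correlated with replicates 1 and 2, of the other dye orientation, at -0.07 and -0.06 and with replicate 3, of its own orientation, at 0.04. Genes share an array and a dye orientation here and are not independent.

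No gene passed the test for a difference between Ts1Cje and euploid cerebellum at P10. Of 19308 genes and unnamed probes with a value on at least 3 of the 4 arrays, 0 were higher (0.0%) and 0 were lower (0.0%) at a limma adjusted p below 0.05, with a smallest adjusted p of 0.92. Without adjustment 310 would be higher and 227 lower at 0.05. Together these are 537, fewer than the 0.05 of all tests that this threshold passes where nothing differs. The analysis of variance of the study's methods, run on all 28 arrays without moderation, gave 463 higher and 585 lower before and 0 after adjustment. Its 1048 of 19262 before adjustment lay near 0.05 of the tests. The count was also 0 on replicates 1 to 3 (smallest adjusted p 0.993), with replicate 4 moved back (0.95) and on the 26 arrays that matched as deposited (0.0832, for the collagen gene Col5a2). The standard error of a gene's mean log2 ratio had a median of 0.285 on the 4 arrays as deposited and 0.233 on replicates 1 to 3, so that a difference of 0.58 is little more than 2 standard errors for a typical gene. The text below therefore describes values and counts, and no gene is called changed. Counts of genes on 1 side of 0 on every P10 array with a value are to be read beside 8.31% of all genes tested for the high side and 8.98% for the low side, and those on replicates 1 to 3 beside 11.1% and 12.6%.

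Genes in 3 copies lay above 0 as a group on replicates 1 to 3. The list held 69 genes of distal Mmu16, of which 64 had a probe and 58 had values on at least 3 arrays. Their median was 0.12, 0.15 and 0.21 on replicates 1, 2 and 3, where the median over all genes was -0.02, 0.00 and 0.01. On replicate 4 the median of three-copy genes was -0.06 as deposited and 0.16 after the move. The share of measured three-copy genes above 0 was 59.6%, 71.4% and 66.7% on replicates 1 to 3, and on replicate 4 it was 40.0% as deposited and 59.3% after the move. Over all genes, these shares were 47.6%, 49.4%, 50.6%, 50.1% and 51.3%. The median of the gene means was 0.12 for three-copy genes and -0.01 for all genes on the 4 arrays as deposited, and 0.13 and -0.01 on replicates 1 to 3. In comparison, 24 tested genes of proximal Mmu16, which stay in 2 copies, had a median of -0.03 (-0.04 without replicate 4). On single arrays their median was -0.17, -0.01 and -0.11 on replicates 1 to 3, and 0.09 on replicate 4 as deposited against -0.27 after the move, so that this list lay about as far from 0 as the three-copy genes on several arrays, on the other side.

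Counted gene by gene, 10 of 58 three-copy genes were above 0 on every P10 array on which they had a value, beside 8.31% of all genes tested, and 4 were below 0 on every such array, beside 8.98%. Of these 10, 6 had no value on replicate 4 as deposited. Of the 34 with values on all 4 arrays, 2 were above 0 on every array, beside 5.38% of all genes. With replicate 4 moved back this became 11 of 44, or 25.0%, beside 5.74% of all genes. On replicates 1 to 3 alone, 14 of the 49 genes measured on each were above 0 on all of them, or 28.6%, beside 11.1% of all genes. In the other direction 4 of 49 were below 0 on all of them, or 8.16%, beside 12.6%. Of the 14 genes above 0 on replicates 1 to 3, 13 had a value on replicate 4 after the move and 11 of these were above 0, a share of 84.6%. For all 1438 named genes chosen in the same way that share was 50.4%. As deposited, replicate 4 gave 2 of 8 for the three-copy genes and 49.0% for all named genes. Most means fell short of 3 over 2 copies: of the 49 genes, 5 had a mean over replicates 1 to 3 above 0.58, 28 lay between 0 and 0.58 and 16 were below 0. For single genes, the standard deviation over these arrays had a median of 0.40 among three-copy genes and 0.37 among all genes.

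**Figure D2:**
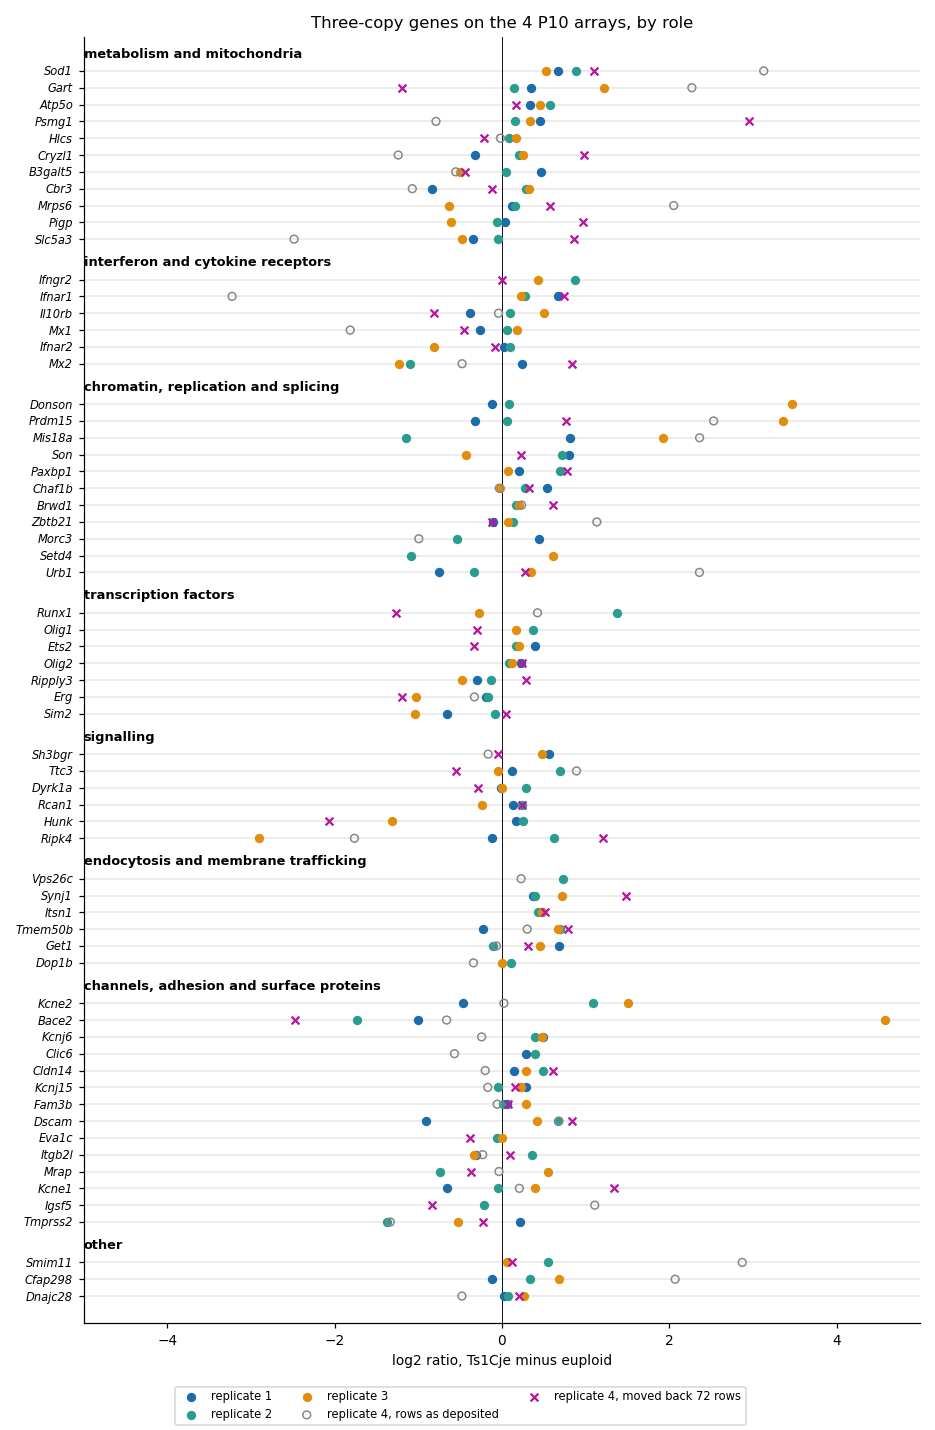
Log2 ratio, Ts1Cje minus euploid (horizontal axis), of every three-copy gene with a probe, ordered by role and by the mean over replicates 1 to 3. Filled points are replicates 1 to 3, open circles replicate 4 as deposited and crosses replicate 4 moved back by 72 rows; 14 of the 49 genes measured on replicates 1 to 3 have all filled points right of 0, and 4 have all of them left of 0.

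Among the three-copy enzymes, Sod1 had the highest mean over replicates 1 to 3. Sod1 is the cytosolic superoxide dismutase, which turns superoxide into hydrogen peroxide. Its log2 ratios were 0.67, 0.88 and 0.53 on replicates 1 to 3, and on replicate 4 it was 3.13 as deposited and 1.10 after the move. It was above 0 on each array under either reading, and only the deposited value of replicate 4 lay far from the rest. On the 4 arrays as deposited, the mean of 1.30 (SE 0.50) was a 2.47-fold level in Ts1Cje relative to euploid (95% interval 1.02 to 5.96, limma adjusted p = 0.92). On replicates 1 to 3 it was 1.62-fold (1.16 to 2.25, limma adjusted p = 0.99), and with replicate 4 moved back 1.74-fold (1.27 to 2.38, limma adjusted p = 0.95). An exact sign-flip permutation test over 4 arrays cannot go below a two-sided p of 0.125, which is what Sod1 gave, nor below 0.25 over 3 arrays.

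Atp5o, a subunit of the mitochondrial ATP synthase, had ratios of 0.33, 0.57 and 0.45 on replicates 1 to 3, no value on replicate 4 as deposited and 0.17 after the move. Its mean over replicates 1 to 3 was 0.45 ± 0.12 (SD, n = 3 arrays). Gart, which catalyses steps of purine synthesis, was above 0 on all arrays as deposited (0.35, 0.14, 1.22 and 2.27) but at -1.19 on replicate 4 after the move. Psmg1, a proteasome assembly chaperone, gave 0.45, 0.15 and 0.33 on replicates 1 to 3, with -0.79 on replicate 4 as deposited and 2.95 after the move. Not all enzymes and transporters were on the high side. Slc5a3, the sodium and myo-inositol cotransporter, gave -0.34, -0.05 and -0.48 on replicates 1 to 3, and the GPI anchor synthesis gene Pigp and the mitochondrial ribosomal gene Mrps6 were mixed in sign. Of the 10 genes of this role measured on replicates 1 to 3, 4 were above 0 on all of them and 1 was below 0.

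Among the endocytic genes, Itsn1 and Synj1 had nearly equal values on several arrays. Itsn1, a scaffold that gathers the endocytic machinery at clathrin-coated pits, had ratios of 0.48, 0.44 and 0.47 on replicates 1 to 3, with no value on replicate 4 as deposited and 0.52 after the move. Synj1, the phosphoinositide phosphatase that helps to strip clathrin from synaptic vesicles, had 0.37, 0.40 and 0.71, again no value on replicate 4 as deposited and 1.49 after the move. On replicates 1 to 3 these means were a 1.38-fold level (95% interval 1.02 to 1.86) for Itsn1 and a 1.41-fold level (1.01 to 1.97) for Synj1, both with a limma adjusted p of 0.99. The membrane protein gene Tmem50b was below 0 on replicate 1 only, at -0.22, with 0.69 and 0.67 on replicates 2 and 3. Get1, a receptor for inserting tail-anchored proteins into the endoplasmic reticulum membrane, ranged between -0.11 and 0.68 on replicates 1 to 3. The median of this role was 0.42, 0.42 and 0.47 on replicates 1 to 3 and 0.66 on the moved replicate 4, against 0.08 as deposited.

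The promoters of Sod1, Itsn1, Synj1 and Atp5o are shown because, of the 11 three-copy genes above 0 on replicates 1 to 3 and on the moved replicate 4, these had the highest means over replicates 1 to 3. The sequences are from RefSeq (build GRCm38.p6), run from 250 bases before to 50 bases after the annotated start in the direction of the gene, and carry motifs in capitals. The motifs searched were the GC box, GGGCGG with its reverse complement CCGCCC, the promoter box named CCAAT with its reverse complement ATTGG, and the TATA box, TATAAA with its reverse complement TTTATA. Overlapping GC boxes in the Sod1 window were counted separately. The build used for the array design is not given in the sources used here, and these coordinates belong to the RefSeq build only.
Sod1, chr16:90220512-90220811, plus strand: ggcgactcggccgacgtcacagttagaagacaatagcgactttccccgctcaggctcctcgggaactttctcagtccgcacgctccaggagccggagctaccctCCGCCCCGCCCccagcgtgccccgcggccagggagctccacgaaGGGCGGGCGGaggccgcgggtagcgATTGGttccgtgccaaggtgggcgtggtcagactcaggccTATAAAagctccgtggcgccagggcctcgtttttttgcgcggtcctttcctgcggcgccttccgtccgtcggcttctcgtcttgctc
Itsn1, chr16:91729121-91729420, plus strand: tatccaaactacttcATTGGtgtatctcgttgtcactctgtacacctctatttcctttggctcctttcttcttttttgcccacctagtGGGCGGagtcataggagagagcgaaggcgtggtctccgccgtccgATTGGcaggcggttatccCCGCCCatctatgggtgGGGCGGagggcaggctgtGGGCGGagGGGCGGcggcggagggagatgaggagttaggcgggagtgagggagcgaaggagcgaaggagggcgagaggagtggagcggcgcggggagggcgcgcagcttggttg
Synj1, chr16:91011046-91011345, minus strand: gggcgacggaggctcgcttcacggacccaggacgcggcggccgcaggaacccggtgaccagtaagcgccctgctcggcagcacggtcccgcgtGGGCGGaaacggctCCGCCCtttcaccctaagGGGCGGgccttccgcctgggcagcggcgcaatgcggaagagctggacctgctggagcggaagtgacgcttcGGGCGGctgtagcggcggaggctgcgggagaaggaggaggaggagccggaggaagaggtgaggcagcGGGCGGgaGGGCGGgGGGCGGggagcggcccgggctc
Atp5o, chr16:91931581-91931880, minus strand: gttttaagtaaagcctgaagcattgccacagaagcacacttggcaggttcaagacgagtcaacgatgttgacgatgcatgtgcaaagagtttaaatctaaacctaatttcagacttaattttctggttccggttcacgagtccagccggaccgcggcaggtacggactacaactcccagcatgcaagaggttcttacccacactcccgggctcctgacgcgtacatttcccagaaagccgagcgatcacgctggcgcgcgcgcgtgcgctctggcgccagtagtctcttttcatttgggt
The Sod1 window held 4 GC boxes, 1 CCAAT box and 1 TATA box, the Itsn1 window 5 GC boxes and 2 CCAAT boxes, and the Synj1 window 7 GC boxes, while the Atp5o window held none of these letters. Of the 32841 promoters of the same length in the table, 35.7% held a GC box, 37.4% a CCAAT box and 13.6% a TATA box. Another annotated start of Synj1 also held none of them and is not printed.

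Receptor genes of the interferon cluster were less even. Ifnar1, a chain of the type I interferon receptor, had 0.67, 0.28 and 0.22 on replicates 1 to 3, and -3.23 on replicate 4 as deposited against 0.74 after the move. Ifngr2, a chain of the interferon gamma receptor, had values only on replicates 2 and 3 (0.87 and 0.44) and was at 0.00 on the moved replicate 4. Ifnar2 and Il10rb, which pair with Ifnar1 and with the interleukin-10 receptor, each had both signs among replicates 1 to 3. The antiviral gene Mx2 was at 0.24, -1.10 and -1.23.

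Among the chromatin, replication and splicing genes, the highest means rested on replicate 3. Donson, a DNA replication factor, was at -0.11, 0.09 and 3.46 on replicates 1 to 3, and the zinc finger gene Prdm15 was at -0.32, 0.06 and 3.36. The most extreme value of the whole list was of the same kind: Bace2, a membrane protease, stood at 4.58 on replicate 3 and at -1.0 and -1.73 on replicates 1 and 2. On replicate 4, Prdm15 was at 2.53 as deposited and 0.76 after the move, and Bace2 at -0.66 and -2.48. Paxbp1, a splicing-related protein, was above 0 on replicates 1 to 3 (0.21, 0.70 and 0.07) and at 0.78 on the moved replicate 4. Brwd1, a bromodomain protein, was measured on 3 arrays as deposited with 0.17, 0.20 and 0.24 on replicates 2 to 4. The splicing cofactor Son was at 0.80 and 0.71 on replicates 1 and 2 and at -0.43 on replicate 3.

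The three-copy transcription factors split by gene. Olig2, which specifies oligodendrocytes and motor neurons, gave 0.23, 0.09 and 0.12 on replicates 1 to 3 and 0.24 on the moved replicate 4. Ets2 gave 0.40, 0.17 and 0.20 but -0.34 on the moved replicate 4. Erg, a factor of endothelial cells, gave -0.19, -0.17 and -1.03, and Sim2, a neural regulator, gave -0.65, -0.08 and -1.04. Ripply3, a transcriptional corepressor, gave -0.30, -0.14 and -0.48. Of these 3 only Erg stayed below 0 on the moved replicate 4, at -1.19. The role thus held 2 genes above 0 and 3 below 0 of the 5 measured on replicates 1 to 3.

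The signalling genes had a median of 0.13, 0.28 and -0.14 on replicates 1 to 3, and on replicate 4 of -0.16 as deposited and -0.17 after the move. Dyrk1a, a kinase that opposes calcineurin and NFAT signalling, gave -0.01, 0.28 and 0.00 on replicates 1 to 3, and Rcan1, a calcineurin inhibitor, gave 0.13, 0.24 and -0.24. None of the 5 signalling genes measured on replicates 1 to 3 had the same sign on all of them. Among the channels and surface proteins, Kcnj6, the G protein-gated potassium channel subunit GIRK2 of granule cells, was even at 0.49, 0.39 and 0.47 on replicates 1 to 3. On replicate 4 Kcnj6 was at -0.24 as deposited and had no value after the move. The tight junction gene Cldn14 gave 0.14, 0.49 and 0.29 and was at 0.61 on the moved replicate 4, against -0.20 as deposited. Dscam, a neuronal adhesion molecule, was at -0.91 on replicate 1 and at 0.67 and 0.42 on replicates 2 and 3.

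The study's list of genes that differed at each of its 4 stages was chosen partly on these arrays, so its direction at P10 is no independent evidence. Of its 13 genes, 11 had a probe and 10 were tested. On replicates 1 to 3, 8 of the 9 measured on each were above 0 on all of them, beside 11.1% of all genes. Their median was 0.56, 0.69 and 0.50 on replicates 1 to 3, and on replicate 4 it was -0.19 as deposited (1 of 4 above 0) and 0.41 after the move (9 of 10 above 0). Besides Sod1, Atp5o, Kcnj6, Son and Ifngr2, which are in 3 copies, the list holds genes on other chromosomes. Hsfy2, a heat shock factor family gene, gave 0.62, 0.69 and 0.56 on replicates 1 to 3 and 0.67 on the moved replicate 4. Vmn1r216, a vomeronasal receptor gene, gave 0.49, 0.70 and 0.58 on replicates 1 to 3 and 0.63 on the moved replicate 4. Their standard deviations over replicates 1 to 3 were 0.07 and 0.10. Bpifb6 gave 0.47, 0.09 and 0.44, with -0.14 on replicate 4 as deposited and 0.35 after the move. Phtf1 gave 0.70, 0.39 and 0.64 and then 0.06 on the moved array. Marchf1, a membrane ubiquitin ligase, gave 0.35 and 0.59 on replicates 1 and 2, -1.42 on replicate 4 as deposited and 0.47 after the move.

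Dnah11, an axonemal dynein heavy chain gene in the Mmu12 segment that Ts1Cje mice carry in 1 copy, had the highest mean of the study's list. Its ratios were 1.30, 2.42 and 1.20 on replicates 1 to 3 and 1.49 on the moved replicate 4, a 3.11-fold level over replicates 1 to 3 (95% interval 1.68 to 5.77, limma adjusted p = 0.99). No other gene of the segment was above 0 on all of replicates 1 to 3. Sp4, a neuronal zinc finger transcription factor, gave 0.00, -0.44 and -0.22, and the integrin subunit Itgb8 gave 0.35, -1.21 and -1.06 with 0.43 on replicate 4 as deposited. The transporter Abcb5 gave 0.37, -0.45, -1.10 and 0.31, and Sp8 spanned -0.68 to 4.37 on replicates 1 to 3. Beside the breakpoint, Cdca7l, a nuclear protein related to a Myc target, was at 1.04 and 2.33 on replicates 2 and 3, had no value on replicate 1 and stood at -1.03 on replicate 4 as deposited.

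**Figure D3:**
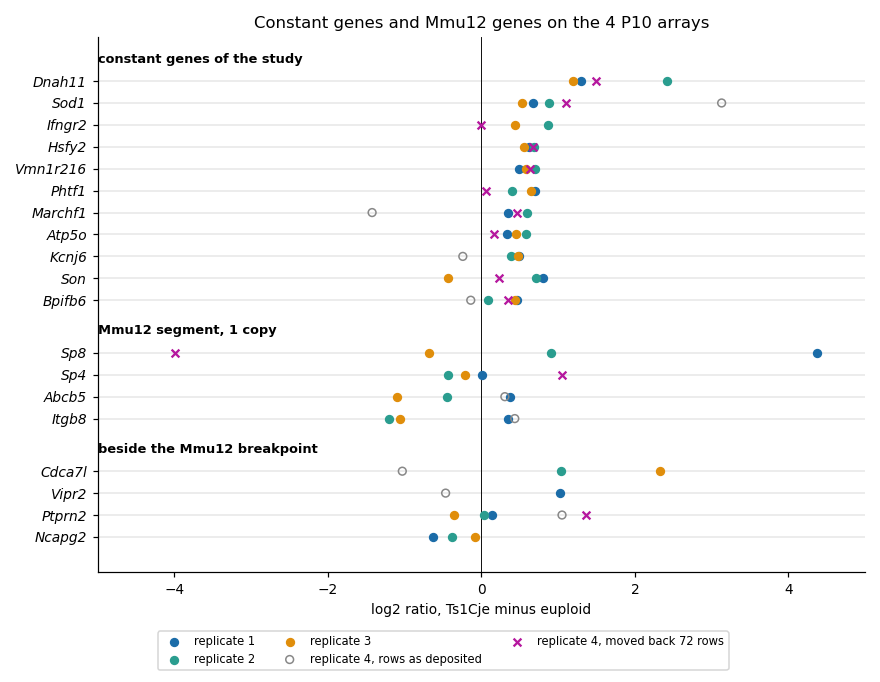
Log2 ratio, Ts1Cje minus euploid (horizontal axis), of the study's constant genes, the other genes of the 1-copy Mmu12 segment and the genes beside the breakpoint, with the same symbols for the arrays as in the plot of three-copy genes. The filled points of 8 constant genes lie right of 0 on all of replicates 1 to 3, and 9 of the 10 crosses of that list lie right of 0.

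Whether the P10 difference departed from that at P0, P3 and P7 was tested on the 16 same-stage arrays as P10 minus the mean of the other stages. Of 18742 genes and unnamed probes, 0 passed at a limma adjusted p below 0.05 (0.0%), and 0 passed without replicate 4 or with it moved back. Before adjustment 394 were higher and 430 lower, together 824 and fewer than 0.05 of those tested. No gene is therefore called particular to P10. The medians of the three-copy gene means were 0.25 at P0, 0.16 at P3, 0.15 at P7 and 0.12 at P10 on the arrays as deposited, or 0.13 at P10 without replicate 4. Sod1 averaged 0.72 ± 0.19 at P0, 0.61 ± 0.36 at P3, 0.93 ± 0.37 at P7 (SD, n = 4 arrays each) and 0.69 ± 0.18 at P10 (SD, replicates 1 to 3). Atp5o averaged 0.48, 0.40, 0.56 and 0.45 at these stages, and Dnah11 1.46, 1.68, 2.11 and 1.64. None of these 3 genes passed the test of P10 against the other stages (limma adjusted p = 1.0 each). Itsn1 had ratios below 0 on 1 array at each of P0, P3 and P7, and on no array at P10 among replicates 1 to 3. The earlier stages had 4 arrays each, and Itsn1 was featured here for its values on those 3 P10 arrays. It did not pass the test against the other stages either, so this is no trait of P10.

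**Figure D4:**
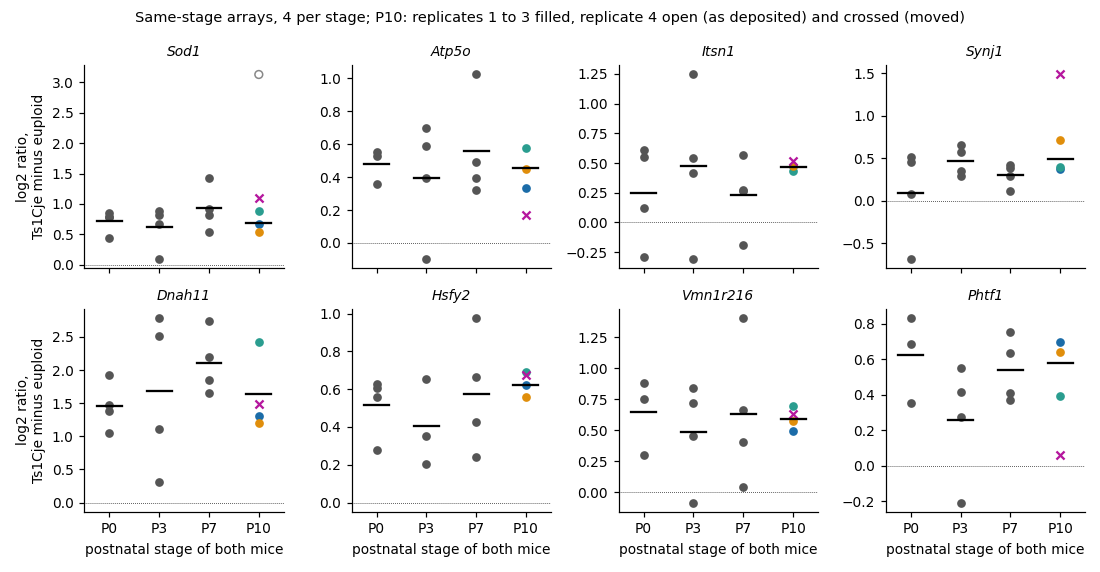
Log2 ratio, Ts1Cje minus euploid (vertical axis, scaled per gene), of 8 genes on the same-stage arrays at P0, P3, P7 and P10 (horizontal axis). Points are arrays and bars are stage means, taken over replicates 1 to 3 at P10, where the open circle is replicate 4 as deposited and the cross the same array moved back; for Sod1 the stage means lie between 0.61 and 0.93.

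Other mice gave a further view of P10. On 4 arrays a P7 mouse was set against a P10 mouse, 2 with the Ts1Cje mouse at P10 and 2 with it at P7, and averaging the orientations cancels age and leaves the mean of the P7 and P10 genotype differences. Of 19206 genes and unnamed probes 0 passed at a limma adjusted p below 0.05 (0.0%). Before adjustment 417 were higher and 331 lower, together 748 and fewer than 0.05 of those tested. The three-copy median was 0.12 on these arrays and 0.15 without the array displaced by 24 rows, beside -0.01 and -0.02 over all genes. On the arrays with the Ts1Cje mouse at P10, Sod1 was at 0.86 and 0.14, where 0.14 is on the displaced array as deposited. On those with the Ts1Cje mouse at P7, Sod1 was at 1.20 and 0.59. Dnah11 was at 2.03, -1.05, 0.81 and 1.88 in the same order, where -1.05 is on the displaced array. Synj1 was at -0.32 on the matching array with Ts1Cje at P10 and at -0.43 and 0.55 on those with Ts1Cje at P7. Each single value on these arrays also holds the age difference.

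Markers of the main cerebellar cell types had medians on both sides of 0. Precursor markers of granule cells had a median of -0.08, 0.01 and -0.21 on replicates 1 to 3, and on replicate 4 of 0.13 as deposited and -0.15 after the move, with 0 of 12 tested genes above 0 on every array and 1 below. Zic1 was at 0.00, 0.00 and -0.04, Atoh1, the factor that defines the precursors, at -0.13, 0.18 and 0.01 and the proliferation gene Mki67 at -0.16, 0.01 and 0.16. Granule neuron markers had a median of 0.04, -0.02 and 0.11 on replicates 1 to 3, and on replicate 4 of -0.04 as deposited and -0.06 after the move. Purkinje cell markers had a median of -0.04, -0.01 and -0.07 on replicates 1 to 3, and on replicate 4 of 0.05 as deposited and -0.34 after the move, where 3 of 13 were above 0. Astrocyte and Bergmann glia markers had a median of 0.08, 0.02 and 0.00 on replicates 1 to 3, and on replicate 4 of 0.04 as deposited and 0.11 after the move. Immature neuron markers were at 0.06 and -0.05 on replicates 1 and 2 and at -0.41 on replicate 3, and on replicate 4 at 0.03 as deposited and 0.05 after the move. Of these, 4 of 15 were below 0 on all of replicates 1 to 3, or 26.7%, beside 12.6% of all genes, namely Nrep, Dpysl5, Sox11 and Map1b. GABAergic interneuron markers had a median of gene means of 0.35 on the 4 arrays as deposited and 0.07 without replicate 4, with 0 of 8 on 1 side of 0 on all of replicates 1 to 3. The Purkinje marker Car8 gave 0.22, 0.24 and -0.07, and Rora, a nuclear receptor of the same cells, gave -0.19, -0.12 and -0.12. In whole cerebellum, fewer cells of a type and less RNA per cell cannot be told apart. Of 23 cell cycle genes tested, 0 were above 0 on every array with a value and 4 were below, namely Mcm7, Rrm1, Tyms and E2f1, beside 8.98% of all genes. On replicates 1 to 3, 4 of 20 were below 0 on all of them, beside 12.6%. The list median was -0.07, -0.05 and -0.20 on replicates 1 to 3. On replicate 4 it was -0.49 as deposited and -0.01 after the move, where 13 of 27 were above 0. Sonic hedgehog pathway genes held 0 of 14 above and 0 of 14 below 0 on every array. Among tissues that a dissection could carry along, 0 of 8 choroid plexus, 0 of 12 meningeal and 0 of 9 brainstem markers were above 0 on every array, and 0, 2 and 2 of these lists were below. The brainstem and deep nuclei markers had a median of -0.25, -0.10 and -0.34 on replicates 1 to 3, and on replicate 4 of -0.20 as deposited and -0.34 after the move. Of the 6 measured on replicates 1 to 3, 2 were below 0 on all of them, or 33.3%, beside 12.6% of all genes, and among them Chat, the acetylcholine-synthesising enzyme of motor neurons, was at -0.33, -0.27 and -0.22. The part of brainstem tissue in the other values was not tested. Endothelial markers had medians of -0.03, -0.03 and 0.13 on replicates 1 to 3 and 0.85 on the moved replicate 4, against -0.14 as deposited.

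Interferon response genes outside the three-copy region were above 0 on every array with a value in 7 of 16 tested, beside 8.31% of all genes, and in 6 of 12 on replicates 1 to 3, beside 11.1%. None was below 0 on every array. Their median was 0.23, 0.14 and 0.21 on replicates 1 to 3, and on replicate 4 it was 0.09 as deposited and 0.17 after the move. Isg15, a ubiquitin-like protein induced by interferon, gave 0.39, 0.11 and 1.02, with 1.44 on replicate 4 as deposited and 1.85 after the move. Eif2ak2, the kinase PKR, gave 0.45, 0.20 and 0.28 and 0.46 on the moved array, and Stat2, a signal transducer of the type I receptor, gave 0.13, 0.49 and 0.20 and then 0.16. Irf7 was close to 0 at 0.09, 0.05 and 0.15 and at -0.99 on the moved array. The medians of the list were 0.17 at P0, 0.00 at P3 and -0.01 at P7, and on the 4 arrays of mixed P7 and P10 mice it was -0.24. All adjusted p-values of its members were 0.92 or higher by limma. Microglia markers, which come from a cell type that also expresses interferon genes, had medians of 0.09, -0.04 and -0.36 on replicates 1 to 3 and, on replicate 4, of 0.23 as deposited and 0.03 after the move, and their part in the interferon values was not tested.

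Oligodendrocyte and myelin genes were above 0 on every array with a value in 5 of 20 tested, beside 8.31% of all genes, and on replicates 1 to 3 in 6 of 18, or 33.3%, beside 11.1%. Mog, a myelin surface protein, gave 0.27, 0.14 and 0.73, Mobp 0.09, 0.23 and 0.39 and Tspan2 0.28, 0.32 and 0.11. On the moved replicate 4 these were at -0.15, 0.73 and 0.92. Mbp, the major myelin basic protein, was at -0.27, -0.01 and 0.23, and Opalin was below 0 on all 3 arrays at -0.90, -1.04 and -1.11. The list median was 0.08, 0.14 and 0.15 on replicates 1 to 3, and on replicate 4 it was 0.19 as deposited, with 9 of 12 above 0, and 0.01 after the move, with 8 of 16 above 0. Cytosolic ribosomal protein genes were below 0 on every array with a value in 13 of 69 and on replicates 1 to 3 in 12 of 57, beside 8.98% and 12.6% of all genes. Their median, however, was -0.08, 0.07 and -0.29 on replicates 1, 2 and 3, and on replicate 4 it was -0.47 as deposited and -0.06 after the move, so replicate 2 lay on the other side of 0. Rpl19 gave -0.47, -0.10 and -0.48, with -0.44 on replicate 4 as deposited and -0.24 after the move. Respiratory chain, calcineurin, glutamate receptor and synaptic vesicle genes had medians of gene means between 0.00 and 0.06.

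**Figure D5:**
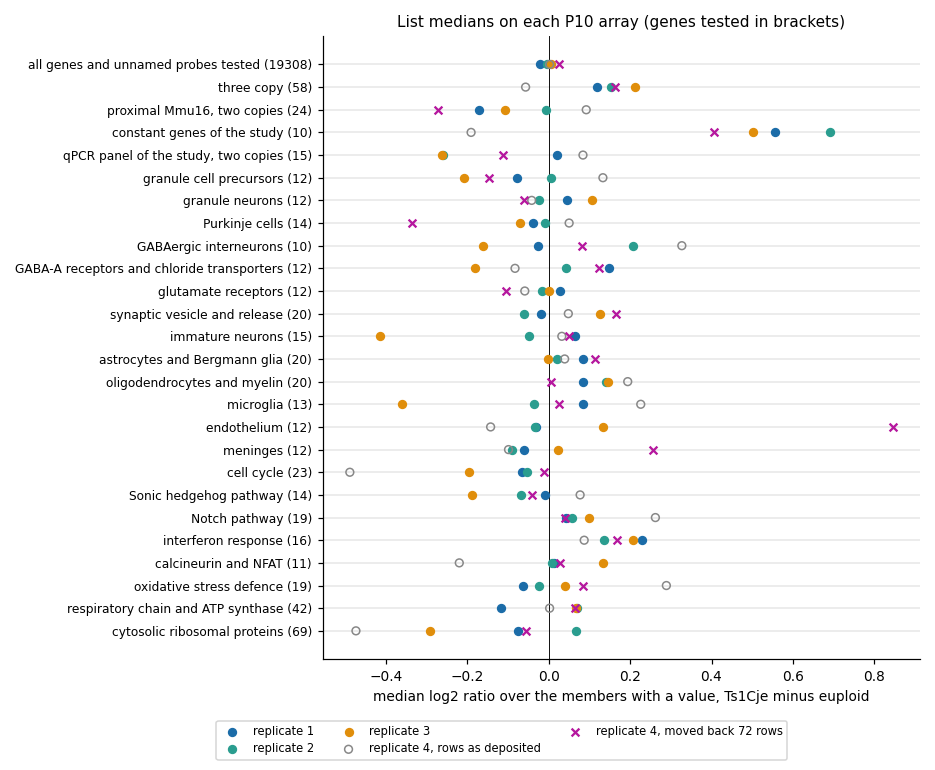
Median log2 ratio, Ts1Cje minus euploid (horizontal axis), over the measured members of each gene list on each P10 array, with the same symbols for the arrays as in the plot of three-copy genes and the number of genes tested in brackets. The medians of all genes lie within 0.03 of 0, those of three-copy genes between 0.12 and 0.21 on replicates 1 to 3, and those of the constant genes between 0.50 and 0.69.

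Outside the lists, the genes with the smallest limma p among those of the same sign on all 4 arrays as deposited were described by values only, since none passed adjustment. On the low side Cd177 was at -0.69, -2.52, -1.13 and -3.06 and Ccdc117, which had the smallest p of all, at -1.15, -1.33, -1.42 and -1.62, a 0.38-fold level (95% interval 0.28 to 0.53, limma adjusted p = 0.92). Nop14, a ribosome assembly factor, was at -1.01, -0.73, -1.17 and -1.03 and Mgp, the matrix Gla protein, at -0.78, -0.79, -0.97 and -1.28. Nrgn, the neuronal calmodulin-binding protein neurogranin, was at -0.71, -0.50, -1.17 and -1.48. The other low genes were Intu, Slc22a16, Coil, Bcdin3d and Serpinb9b. The fit of the 4 mixed arrays gives the mean of the P7 and P10 differences in other mice. It was above 0 for Ccdc117 (0.34), Nop14 (0.28), Coil (0.33), Bcdin3d (0.29), Serpinb9b (1.36), Nrgn (0.31) and Cd177 (0.45). It was below 0 for Mgp (-0.10), Intu (-0.48) and Slc22a16 (-0.92). Without the displaced array, Nrgn and Cd177 were at -0.01 each. On the high side, Pld1, a phospholipase D, was at 1.62, 0.65, 1.89 and 1.69, Ptx3, a pentraxin, at 0.55, 1.22, 0.99 and 0.77 and Ly86, a partner of a Toll-like receptor relative, at 0.78, 0.91, 1.13 and 2.24. The other high genes were Slc25a18, Ifna13, Hoxb8, Dpm2, 4930448H16Rik, Lysmd1 and Myadm. In the fit of the mixed arrays, Pld1 (-0.67), Ly86 (-0.80), Myadm (-0.35), Ifna13 (-0.21) and Dpm2 (-0.16) were below 0. Ptx3 (0.11), Slc25a18 (0.20) and 4930448H16Rik (0.08) were above 0, Hoxb8 was at 0.00 and Lysmd1 had no estimate. Without the displaced array, Ly86 (0.10) and Dpm2 (0.56) were above 0 and Ptx3 (-0.37) was below. With replicate 4 moved back, 8 of the 10 high genes had a value and 2 kept their sign (Ptx3 at 0.25 and Ly86 at 3.19), and 2 of the 10 low genes had a value and 1 kept its sign (Nrgn at -0.40). These genes had been chosen with replicate 4 as deposited.

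Sex-linked transcripts differed in sign between the arrays. Xist, the RNA of the inactive X chromosome, was at 3.28, -4.24, -3.13 and -0.88 and the Y-linked Eif2s3y at -0.17, 0.88, 1.34 and -0.64 on replicates 1 to 4 as deposited. Replicate 1 thus had the opposite sign to replicates 2 and 3 for both. With Xist as a covariate 0 genes passed by limma, with 249 higher and 265 lower before adjustment, and the three-copy median was 0.06. The covariate used the deposited value of replicate 4, and 0 of these transcripts had a value there after the move. This fit may therefore not adjust for sex on that array.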

How the data were processed

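Cerebellar RNA of individual mice was hybridised on two-colour spotted arrays. The authors deposited Cy5 over Cy3 ratios on the log2 scale. They took median pixel intensities from GenePix Pro 4.1, subtracted the background and applied local LOWESS in R to each array, leaving out control spots, irregular spots and spots under 1.2 times the local background, which are missing values here. Scanner files were not used here, and the genome build of the probes is not given in the sources used here. The number of arrays limits the precision.

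Of 25344 probes, 20626 had 1 gene symbol, 0 had several and 4718 had none in the annotation given, and 258 control spots were left out. Symbols were updated through accessions and gene tables, and probes of a gene were averaged, which gave 23218 genes and unnamed probes. Ratios were signed as Ts1Cje minus euploid. Genes with values on at least 3 of the 4 P10 arrays were fitted by limma 3.58.1 under R 4.3.3 with an intercept, and p-values were adjusted by Benjamini-Hochberg over all tested (threshold 0.05). The fit was tested on simulated data. The P10 difference was set against the other stages on the 16 same-stage arrays (at least 2 values per stage), and 4 arrays of mixed P7 and P10 mice were fitted separately. The alternatives were other filters, centring, scaling, single probes, a dye term, array weights, all 28 arrays, the study's analysis of variance, Xist as a covariate and leaving out each array. After the data were seen, row offsets were searched inside blocks of 528 rows, a block size inferred from the printing layout, and the fits were repeated with replicate 4 moved back by 72 rows or without the displaced arrays.

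Genes to be named were chosen as every measured three-copy gene and Mmu12 gene, the study's constant genes, and up to 3 genes of each other list with the smallest p. To these were added the 10 genes in each direction with the smallest p and the same sign on all 4 arrays. The genes with the smallest p for P10 against the other stages were added too. The plots hold all of the three-copy genes, Mmu12 genes and constant genes, and the text names only some of the chosen genes. Other genes of a list were named after their values were seen. The members and lists were chosen with earlier results of these data known, and the lists are described by counts and medians only. The mice are individual animals, the labels do not name litters, and a list by litter and pup that the study mentions was not used, so that p-values measure the spread between these samples. Replicate numbers follow the order of the record and pair nothing. For 1 array taken as P7, the source name gives P7 and the stage label of the euploid mouse P3. Promoters came from RefSeq (GRCm38.p6). Counts and plots used matplotlib 3.10.9, numpy 2.4.6 and pandas 2.3.3 under Python 3.11.15.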

Additional observations from a re-analysis of the deposited data

Results flagged for a closer look

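Among 151 sets of 4 P10 values, 20 held a value that stood apart from the other 3. Of the 20, 14 were on replicate 4, whose rows matched the other arrays best at an offset of 72. Chance gives about 1 in 20 only for values of equal spread. The standard deviations of the log2 ratios were 0.631, 0.673 and 0.978 on replicates 1 to 3 and 1.421 on replicate 4. The share over all genes was not computed, so the count of 20 has no background here. The part of that offset, or of the wider spread of replicate 4, in these values was not tested. The values on replicate 4 were 0.84 for 4930448H16Rik, -0.37 for Serpinb9b, 3.13 for Sod1, -3.23 for Ifnar1, -0.24 for Kcnj6, -5.08 for Nfib, -1.16 for Map1b, -1.51 for Tnc, -2.47 for Tyms, 2.86 for Ifi27 and -2.08 for Ppp3ca. Medians of three-copy roles on replicate 4 also stood apart, at -0.55 for metabolism and mitochondria, -1.15 for interferon and cytokine receptors and 0.08 for endocytosis and membrane trafficking. On replicate 1 the values apart were -0.91 for Dscam and 1.04 for Hbb-bt, on replicate 2 they were 0.37 for Itgb2l and -0.10 for Rpl19, and on replicate 3 they were 4.58 for Bace2 and -0.33 for Cxcr4.

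In 14 of 478 pairs of a gene and an earlier stage, every measured array at P10 lay on the other side of 0 from every array of that stage, a share of 2.93% beside 1.06% of the 54437 such pairs over all genes. Of the 14 pairs, 6 were of Slc25a18, Myadm, Ccdc117, Slc22a16, Lysmd1 and Serpinb9b, which had been chosen because they had the same sign on all 4 P10 arrays, so that this side of the comparison was met by the choice. Among the genes chosen in that way the share was 10.5%, or 6 of 57 pairs. Over all genes and unnamed probes with 1 sign at P10 it was 6.21% of 9327 pairs. Among the other named genes the share was 1.9%, or 8 of 421. These include genes chosen by a small p at P10 or in the stage contrast, so their share is not free of the choice either. The difference between these pairs of stages was not tested, and 0 genes passed the contrast of P10 with the mean of the other stages. Against P0 these were Slc25a18 (mean at P10 1.05), Myadm (0.94), Ccdc117 (-1.38), Slc22a16 (-1.06), Brwd1 (0.20) and B2m (2.13). Against P3 they were Lysmd1 (0.75), Ceacam15 (-1.12), Tex2 (-1.16), Hbb-bt (0.46) and Chat (-0.25). Against P7 they were Serpinb9b (-0.84), Tex2 (-1.16) and Usp25 (-0.43).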

How the results depend on the processing

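Under each of the 19 alternatives the counts of genes higher and lower stayed at 0 after adjustment. So did those of the stage contrast and of the mixed P7 and P10 arrays under theirs. All were limma fits except the study's analysis of variance, which was run without moderation. The 19 include the fit of the mixed arrays, which gives the mean of the P7 and P10 differences in other mice. The median of three-copy genes was 0.12 and ranged between 0.063 with the deposited Xist values as a covariate and 0.178 on all 28 arrays. Each differed from 0.12 by less than the SD of the 4 array medians (0.115). That SD takes in replicate 4 as deposited, whose median was -0.057, against 0.118, 0.153 and 0.211 on replicates 1 to 3. It is therefore a wide yardstick, and staying within it says little. Within the arrays with Ts1Cje on Cy3 it was 0.127 and within those with Ts1Cje on Cy5 0.073. The number of three-copy genes above 0 on every P10 array was 10 of 58, or 17.2%, beside 8.31% of all genes tested. Where a value was required on all 4 arrays it was 2 of 34, or 5.88%, beside 5.38% of all genes. With replicate 4 moved back, which was tried after seeing the data, it was 14 of 58, or 24.1%, beside 7.99% of all genes. Leaving out each array in turn gave 11 to 19. It was 18 without replicate 1, 17 without replicate 3 and 19 without replicate 4, where fewer values have to share a sign. The share over all genes was not computed for these counts, so they have no background here. Of 771 values of 47 single genes under the alternatives, 701 lay within 1 SD of the 4 arrays and 39, in 26 genes, had the other sign. Much of the count of 701 was fixed in advance. For genes with all 4 values, several alternatives returned the main estimate, as the dye term did for Pld1 (1.46) and Ccdc117 (-1.38). Leaving out 1 of 4 values cannot move a mean by as much as 1 SD. The count of 701 therefore says little about how firm these values are. No paired analysis was possible because the replicate numbers follow the order of the record and tie no arrays together. The Ts1Cje and the euploid mouse of an array are already paired in its ratio. With 3 or 4 arrays a gene has few residual degrees of freedom (prior degrees of freedom 2.087), and replicate 4 had the lowest array weight, 0.316 against 0.787 to 2.279.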

Other observations

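The inhibitory receptor genes held both signs at P10. Gabrb1, a beta subunit of the GABA-A receptor, was at -0.04, -0.67 and -0.47 on replicates 1 to 3, with -0.59 on replicate 4 as deposited and -0.68 after the move (mean -0.44 as deposited, SE 0.19, limma adjusted p = 0.92). Gabrd, the delta subunit that granule neurons use outside synapses, was at 0.77 and 0.42 on replicates 2 and 3, at 0.60 on replicate 4 as deposited and at -0.32 after the move. In the Notch pathway, 2 of 19 tested genes were above 0 on every array with a value, or 10.5%, near the 8.31% of all genes. Among these was the receptor Notch2, at 0.09, 0.34, 0.63 and 0.96 as deposited and at 0.26 on the moved replicate 4 (limma adjusted p = 0.92). Its ligand Dll1 was at 0.89, -0.03, 0.77 and 0.39.

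Among proximal Mmu16 genes in 2 copies, App was at -0.01, -0.01 and -0.05 on replicates 1 to 3 and 0.15 on the moved replicate 4. Ncam2, a neural adhesion molecule of the same region, was at -0.13, -0.12 and -0.28 on replicates 1 to 3, -0.05 on replicate 4 as deposited and -0.13 after the move. Of the 20 proximal genes measured on replicates 1 to 3, 1 was above 0 on all of them and 6 were below, beside 11.1% and 12.6% of all genes.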
